A study of Mus musculus with 3 samples.

Results

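Cholesterol and fatty acid synthesis and transport genes were followed in ribosome-bound RNA of mouse brain after stroke. The 39 genes were given as a list of symbols, and all 39 were found among the 16610 genes of the table and passed the filter on low values that left 14906 genes. They comprise 18 enzymes of cholesterol synthesis, 5 genes that control this pathway, 3 genes of sterol transport inside the cell, 4 genes of export and of the sterol sensor LXR, 1 gene of sterol esterification, 3 oxysterol enzymes and 5 genes of fatty acid synthesis.

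Each of 3 libraries came from a pool of 3 mice, for which the series design states 2 technical replicates, and was made from the middle part of a hemisphere, with 3 days given by the labels as the time for all groups. The MCAO hemisphere was the left one of mice whose middle cerebral artery had been occluded for 1 h (MCAO, a model of ischaemic stroke). The contralateral hemisphere was the right one of mice with MCAO, and the control hemisphere was the right one of mice without MCAO. All 3 were pulled down by RiboTag, in which cells that carry an epitope-tagged ribosomal protein give up their ribosomes and the transcripts on them. The series title names astrocytes, and no label gives the Cre driver, the strain, the sex or the age of the mice. With 1 library per group no difference has a replicate check, no test was possible, and left side and occlusion cannot be told apart.

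In the brain, cholesterol is made locally, because lipoproteins of the blood do not cross the blood-brain barrier. Acetyl-CoA is turned into mevalonate, isoprenoids and squalene, and squalene is closed into a ring and trimmed to cholesterol. When sterols in the endoplasmic reticulum are low, the escort protein SCAP carries the SREBP transcription factors to the Golgi, where they are cut and released to switch on these enzymes, and INSIG proteins hold SCAP back when sterols are plentiful. Oxysterols and sterol intermediates activate LXR, which switches on the exporters ABCA1 and ABCG1. Adult astrocytes are held to supply much of the cholesterol that neurons use.

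SREBP factors act on promoters together with the factor NF-Y, which binds the box CCAAT, so the letters in front of several members are shown here before their values. Promoter windows from RefSeq (GRCm38.p6), each from 250 bases before to 50 after a gene's start, were found for 31 of the 39 members. The stretches below are the 150 bases just before the start, 5′ to 3′ on the gene's strand, for 5 synthesis enzymes and for Ch25h, the member with the largest difference. Capitals mark CCAAT or its reverse complement ATTGG, and in Hmgcs1 also the sterol element TCACNCCAC.
Hmgcs1: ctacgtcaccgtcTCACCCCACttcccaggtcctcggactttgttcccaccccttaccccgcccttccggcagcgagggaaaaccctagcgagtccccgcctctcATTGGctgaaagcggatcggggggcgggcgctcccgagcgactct
Idi1: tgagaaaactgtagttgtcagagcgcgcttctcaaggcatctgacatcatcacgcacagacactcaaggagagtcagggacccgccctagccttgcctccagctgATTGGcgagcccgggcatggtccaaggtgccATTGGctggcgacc
Cyp51: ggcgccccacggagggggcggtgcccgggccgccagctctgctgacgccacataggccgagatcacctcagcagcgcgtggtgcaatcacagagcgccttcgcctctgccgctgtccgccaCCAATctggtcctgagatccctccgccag
Msmo1: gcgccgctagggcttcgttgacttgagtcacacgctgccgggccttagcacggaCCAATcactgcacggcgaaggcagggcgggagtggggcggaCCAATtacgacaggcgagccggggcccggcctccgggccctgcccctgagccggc
Sc5d: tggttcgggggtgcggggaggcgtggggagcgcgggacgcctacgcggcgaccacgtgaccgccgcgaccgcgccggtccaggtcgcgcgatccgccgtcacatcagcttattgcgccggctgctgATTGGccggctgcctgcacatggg
Ch25h: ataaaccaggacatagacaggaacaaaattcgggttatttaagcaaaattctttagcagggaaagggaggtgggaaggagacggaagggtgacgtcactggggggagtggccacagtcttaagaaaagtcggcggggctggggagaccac

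These stretches lie at chr13:119690201-119690350 on the plus strand for Hmgcs1, chr13:8885456-8885605 on the plus strand for Idi1 and chr5:4104698-4104847 on the minus strand for Cyp51. They lie at chr8:64733579-64733728 on the minus strand for Msmo1, chr9:42264301-42264450 on the minus strand for Sc5d and chr19:34475149-34475298 on the minus strand for Ch25h. On either strand of the whole window, CCAAT was found for 14 of 15 synthesis enzymes with a window, and for 41.1% of all 27025 genes with one. It was found for 3 of 3 fatty acid synthesis genes, 4 of 5 control genes and 0 of 3 export and LXR genes. The element TCACNCCAC was found for 1 of the 31 members, Hmgcs1, where it began 137 bases before the start, and for 1.44% of all genes. Only this pattern was searched, so a sterol element with other letters would not be found or marked. The LXR element, a direct repeat of AGGTCA separated by NNNN, was found for none of the members and for 0.0148% of all genes. The motifs do not overlap in the printed stretches, and these letters are a description of the windows, not sites of binding.

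The enzymes of cholesterol synthesis were lower in the MCAO hemisphere than in the control hemisphere. Of 18 enzymes, 16 lay below the control by some amount, while 50.3% of all 14906 genes did. The other 2, Pmvk and Ebp, lay above it, while 48.8% of all genes did. At a difference of at least 1.2-fold, a size chosen after the values were seen, 12 of the 18 were lower and 1 higher, against 21.1% of all genes lower and 23.3% higher. At 1.5-fold, the size used throughout, 2 were lower and 0 higher, against 5.18% and 9.16% of all genes. Differences counted in this way, and the medians below, are on the log2(normalised count + 5) scale. The median log2 difference over the 18 was -0.44, and over all genes it was 0.00. Summed over the 18 enzymes, the level was 38925 normalised counts in the MCAO hemisphere and 51417 in the control hemisphere, a ratio of 0.757.

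The contralateral hemisphere, on the side without the occlusion, was lower than the control as well. Of the 18 enzymes, 16 lay below the control, against 50.6% of all genes, and 2 above it, against 49.4%. At 1.2-fold, 13 were lower and 0 higher, against 16.2% and 21.3% of all genes. At 1.5-fold, 3 were lower, against 2.25% of all genes, and 0 were higher, against 8.43%. The median log2 difference was -0.37, beside 0.00 over all genes, and the summed level was 39024 normalised counts. This comparison and the one before it share the control library, so a high value in that single library would lower both.

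Between the hemispheres of mice with MCAO the enzymes differed little. Of the 18, 7 were lower in the MCAO hemisphere than in the contralateral one, against 50.3% of all genes, and 11 were higher, against 49.7%. At 1.2-fold, 2 were lower (Fdft1 and Nsdhl) and 2 higher (Tm7sf2 and Ebp), while 16.5% of all genes were lower and 15.4% higher by that size. None of the 18 differed by 1.5-fold, against 7.71% of all genes lower and 6.19% higher. The median log2 difference was 0.05 and the ratio of the sums was 0.997. The cumulative plot shows the same 18 enzymes shifted to the left in both comparisons with the control and centred near 0 between the hemispheres of mice with MCAO.

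**Figure D1:**
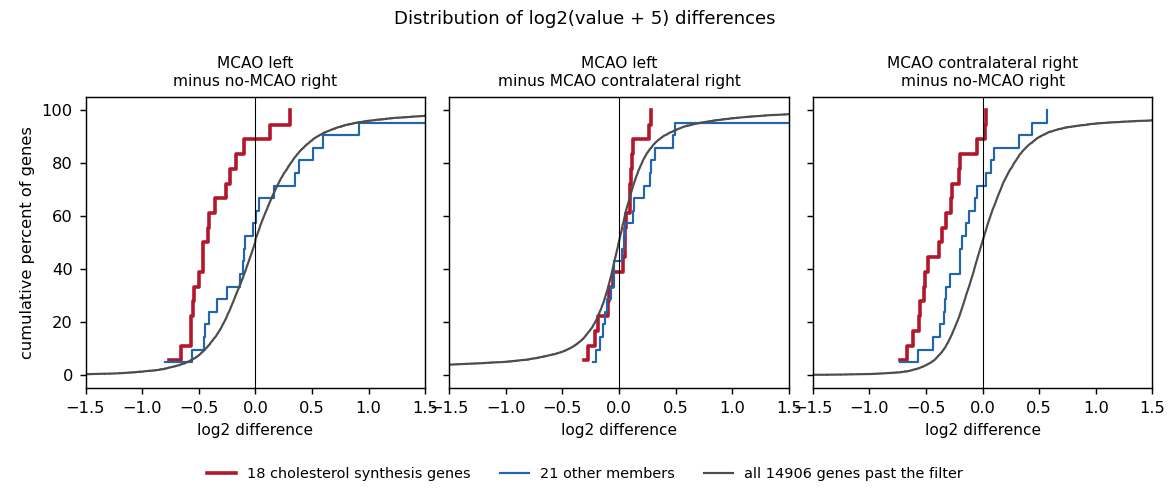
Cumulative percent of genes (vertical axis) by log2(normalised count + 5) difference (horizontal axis, cut at -1.5 and 1.5), for 18 cholesterol synthesis enzymes (red), the other 21 members (blue) and all 14906 genes past the filter (grey). The red line lies left of the grey one in the comparisons with the no-MCAO right hemisphere, where 16 of 18 enzymes are below 0, and crosses 0 near its middle between the MCAO left and contralateral right hemispheres.

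Cell type markers also differed between the libraries, in directions that varied by cell type, and their part in the enzyme differences was not tested. Of 12 neuron markers, 10 were below the control in the MCAO hemisphere and 11 in the contralateral one, against 50.3% and 50.6% of all genes. These 12 summed to 285593 normalised counts in the MCAO hemisphere, 293166 in the contralateral hemisphere and 333312 in the control. Markers of striatal neurons differed far more on the side of the occlusion. All 6 were at least 1.5-fold lower in the MCAO hemisphere than in the control and 5 at least 2-fold lower, against 5.18% and 1.25% of all genes, with sums of 10170, 25447 and 26663. Of 12 astrocyte markers, 6 were below the control in the MCAO hemisphere and 5 in the contralateral one, against 50.3% and 50.6% of all genes. The astrocyte sums were 569643, 634552 and 603389. Oligodendrocytes also make much cholesterol for myelin. In the MCAO hemisphere 8 of 10 of their markers were higher than in the control, against 48.8% of all genes. The oligodendrocyte sums were 162146, 106656 and 126735. The libraries are ribosome pull-downs from pooled mice, with no input library among them. Fewer cells of a type, less RNA per cell and a change in carry-over from untagged cells cannot be told apart.

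Among the early steps, Hmgcs1, which makes the precursor that is reduced to mevalonate (chromosome 13, 119690351 to 119708260), stood at 11164 normalised counts in the MCAO hemisphere, 10703 in the contralateral hemisphere and 14933 in the control hemisphere. Its ratios to the control were 0.748 (0.729 to 0.767) in the MCAO hemisphere and 0.717 (0.70 to 0.734) in the contralateral one. Both libraries of mice with MCAO were thus lower, by more than the 95% counting intervals given in brackets, which leave out any variation between animals. Idi1, which isomerises the isoprenoid unit so that chains can be built (chromosome 13, 8885606 to 8892396), stood at 2267 normalised counts in the MCAO hemisphere, 2420 in the contralateral hemisphere and 3566 in the control. The MCAO level of Idi1 was 0.636-fold the control (0.601 to 0.672). Fdft1, squalene synthase, had 2649, 3206 and 3878, and it was the early gene with the widest gap between both hemispheres of mice with MCAO, at 0.826-fold (0.784 to 0.871). The span of Fdft1 overlaps that of Ctsb, whose level was 1.88-fold the control in the MCAO hemisphere, and no source says whether reads were counted by strand.

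The remaining early enzymes lay nearer to the control in the MCAO hemisphere than these 3 did. Fdps, which joins isoprenoid units into farnesyl diphosphate, was at 0.854-fold the control in the MCAO hemisphere and 0.822-fold in the contralateral one. Mvd, the mevalonate diphosphate decarboxylase, was at 0.835-fold and 0.78-fold, and the mevalonate kinase gene Mvk at 0.886-fold and 0.864-fold. Acat2, a cytosolic thiolase at the entry of the pathway, was at 0.935-fold and 0.872-fold, and it may share reads with its close relative Acat3. Pmvk, phosphomevalonate kinase, was the exception of this stage, with 1908 normalised counts in the MCAO hemisphere, 1775 in the contralateral hemisphere and 1741 in the control. Of the 8 enzymes up to squalene, 3 were 1.2-fold or more below the control in the MCAO hemisphere and 5 in the contralateral one, against 21.1% and 16.2% of all genes, and the medians were -0.24 and -0.28.

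The steps after squalene lay further from the control. Of these 10 enzymes, 9 were 1.2-fold or more below the control in the MCAO hemisphere and 8 in the contralateral one, against 21.1% and 16.2% of all genes, with medians of -0.48 and -0.51. Sc5d, a sterol desaturase late in the pathway (chromosome 9, 42251592 to 42264300), stood at 793 normalised counts in the MCAO hemisphere, 918 in the contralateral hemisphere and 1350 in the control. At 0.587-fold the control (0.535 to 0.644) it was the synthesis enzyme with the lowest ratio in the MCAO hemisphere. Dhcr7, the reductase of the last step of one branch (chromosome 7, 143823167 to 143848410), stood at 1435, 1318 and 2096 normalised counts, and its ratios to the control were 0.685 (0.638 to 0.735) in the MCAO hemisphere and 0.629 (0.589 to 0.672) in the contralateral one. Tm7sf2, a sterol reductase, had 388, 322 and 536 normalised counts and had the lowest contralateral ratio among the enzymes, at 0.601-fold (0.525 to 0.688). Tm7sf2 overlaps Vps51, which was at 1.03-fold the control in the MCAO hemisphere and 0.891-fold in the contralateral one.

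Lss, the cyclase that closes the sterol ring, had 970 normalised counts in the MCAO hemisphere, 1009 in the contralateral hemisphere and 1439 in the control. Cyp51, the sterol demethylase (chromosome 5, 4080674 to 4104697), stood at 2265, 2573 and 3360, and Msmo1, which removes methyl groups from the ring (chromosome 8, 64718123 to 64733578), stood at 3596, 3468 and 4965. All 3 of these had the control as their highest library. Sqle, squalene epoxidase, had 2456, 2609 and 3264 normalised counts, and Hsd17b7, a sterol ketone reductase, had 508, 469 and 720. Nsdhl, the sterol dehydrogenase, was close to the control in the contralateral hemisphere, at 0.967-fold (0.887 to 1.05), and below it in the MCAO hemisphere, with a ratio of 0.779 (0.706 to 0.860). Ebp, a sterol isomerase, was the exception of this stage and had 561, 461 and 454 normalised counts, so its level in the MCAO hemisphere was 1.24-fold the control (1.08 to 1.41).

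**Figure D2:**
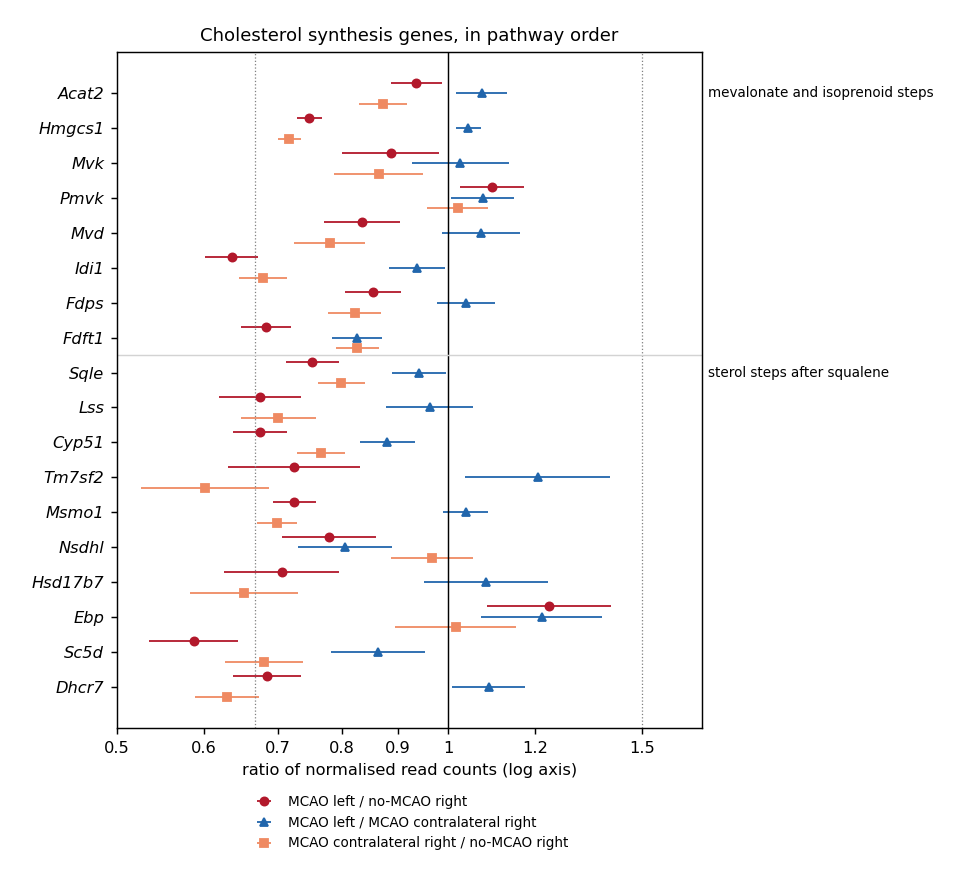
Ratio of normalised read counts (horizontal log axis) for the 18 cholesterol synthesis enzymes in pathway order from top to bottom, with 95% counting intervals as bars and dotted lines at 1.5-fold. Circles (MCAO left over no-MCAO right) and squares (contralateral right over no-MCAO right) lie below 1 for 16 enzymes each, with Pmvk and Ebp above 1, and triangles (MCAO left over contralateral right) lie between 0.806 and 1.22.

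The genes that control the pathway did not move as 1 group. Srebf2, the SREBP gene most tied to cholesterol synthesis (chromosome 15, 82147269 to 82205379), stood at 4278 normalised counts in the MCAO hemisphere, 4935 in the contralateral hemisphere and 5678 in the control, a ratio to the control of 0.753 (0.723 to 0.785) in the MCAO hemisphere. Insig1, itself a target of SREBP (chromosome 5, 28071412 to 28078662), stood at 2558, 2791 and 3779 normalised counts, with ratios to the control of 0.677 (0.642 to 0.714) in the MCAO hemisphere and 0.739 (0.704 to 0.774) in the contralateral one. Srebf1, more tied to fatty acid synthesis and a target of LXR (chromosome 11, 60199084 to 60224186), differed in the other direction, with 5499, 5766 and 3875 normalised counts. Its ratio to the control was 1.42 (1.36 to 1.48) in the MCAO hemisphere and 1.49 (1.43 to 1.55) in the contralateral one. Srebf1 overlaps Rai1, which was at 0.838-fold and 0.927-fold of the control. Scap and Insig2 were between 0.882-fold and 0.955-fold of the control in both hemispheres of mice with MCAO. None of the 5 differed 1.5-fold from the control. Of all genes, 9.16% were higher and 5.18% lower by that size in the MCAO hemisphere, and 8.43% and 2.25% in the contralateral one.

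Genes of sterol movement inside the cell were also mixed. Stard4, a carrier of free cholesterol and a target of SREBP, had 383 normalised counts in the MCAO hemisphere, 451 in the contralateral hemisphere and 672 in the control. At 0.571-fold the control (0.499 to 0.652) it had the lowest ratio of the 39 members in the MCAO hemisphere. Npc1 and Npc2 release cholesterol taken up with lipoproteins from the lysosome, Npc1 in its membrane and Npc2 in its lumen. Npc1 had 3067, 2955 and 3054 normalised counts, with ratios to the control of 1.00 (0.953 to 1.06) in the MCAO hemisphere and 0.968 (0.922 to 1.02) in the contralateral one, and its span overlaps that of Rmc1. Npc2 had 5537, 4544 and 4233 normalised counts, with ratios to the control of 1.31 (1.25 to 1.36) in the MCAO hemisphere and 1.07 (1.03 to 1.12) in the contralateral one.

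The exporter gene Abca1 and the LXR gene Nr1h3 were higher in the MCAO hemisphere. Abca1, which loads cholesterol onto apolipoproteins (chromosome 4, 53030789 to 53159988), stood at 2910 normalised counts in the MCAO hemisphere, 2409 in the contralateral hemisphere and 1926 in the control. Its ratio to the control was 1.51 (1.42 to 1.60) in the MCAO hemisphere, just past 1.5-fold, and 1.25 (1.18 to 1.33) in the contralateral one. Nr1h3, encoding LXR alpha (chromosome 2, 91184061 to 91202829), stood at 274, 195 and 143 normalised counts and a ratio of 1.91 (1.55 to 2.37) in the MCAO hemisphere. The span of Nr1h3 overlaps that of Acp2, whose level was 0.945-fold the control. The other exporter gene, Abcg1, had 2869, 2457 and 3071 normalised counts and was not above the control, while Nr1h2, encoding LXR beta, had 1581, 1445 and 1414. Of the 4 genes, 2 exceeded the control by 1.5-fold in the MCAO hemisphere, against 9.16% of all genes, and none was 1.5-fold higher than the contralateral hemisphere, against 6.19%.

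Soat1, which esterifies cholesterol for storage, had 981 normalised counts in the MCAO hemisphere, 694 in the contralateral hemisphere and 769 in the control. Its ratio in the MCAO hemisphere was 1.28 to the control (1.16 to 1.41) and 1.41 to the contralateral hemisphere (1.28 to 1.56), so the right hemispheres of mice with and without MCAO were closer to each other than to the MCAO hemisphere.

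Ch25h had by far the widest difference of the members. The enzyme adds a hydroxyl group to the side chain of cholesterol, and its gene (chromosome 19, 34473783 to 34475148) is known to be induced by interferon in macrophages. It had 207 normalised counts in the MCAO hemisphere, 6.21 in the contralateral hemisphere and 13.6 in the control, from 176, 7 and 14 reads. The ratio of the MCAO level was 15.3 to the control (8.86 to 28.5) and 33.3 to the contralateral hemisphere (15.8 to 84.1), and 28 of the 14906 genes lay further above the control. The contralateral and control levels could not be told apart at this depth, with a ratio of 0.458 (0.156 to 1.21). Ch25h was the single member at least 2-fold different between any pair of libraries on the log2(normalised count + 5) scale. Of all genes, 4.12% were 2-fold higher and 1.25% lower in the MCAO hemisphere than in the control, and 3.18% higher and 4.96% lower in it than in the contralateral hemisphere. Between the right hemispheres of mice with and without MCAO, 5.17% were higher by that size and 0.362% lower in mice with MCAO.

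The other oxysterol enzymes were not above the control. Cyp46a1, which makes the oxysterol by which neurons release cholesterol from the brain (chromosome 12, 108334268 to 108362234), stood at 5187 normalised counts in the MCAO hemisphere, 5588 in the contralateral hemisphere and 7067 in the control. It was at 0.734-fold the control (0.707 to 0.762) in the MCAO hemisphere and 0.791-fold (0.764 to 0.818) in the contralateral one, where the summed neuron markers were at 0.857-fold and 0.88-fold and the summed striatal neuron markers at 0.381-fold and 0.954-fold. Cyp27a1, a mitochondrial sterol hydroxylase, had 144, 114 and 145 normalised counts, and the MCAO level was 0.988-fold the control (0.771 to 1.26).

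The MCAO hemisphere held the highest value of 9 of the 39 members, Pmvk, Ebp, Npc1, Npc2, Abca1, Nr1h2, Nr1h3, Soat1 and Ch25h. Markers of microglia and macrophages were higher in that library as well. Of 15 such markers, 15 were at least 1.5-fold higher than the control in the MCAO hemisphere, against 9.16% of all genes. Compared with the contralateral hemisphere, 14 were higher by that size and 1 lower, against 6.19% and 7.71% of all genes. The 15 markers summed to 23794 normalised counts in the MCAO hemisphere, 6563 in the contralateral hemisphere and 6110 in the control. The MCAO sum was 3.89-fold the control. None of the 15 was listed at the floor in any library. The 9 reactive astrocyte markers past the filter were all at least 1.5-fold above the control as well, against 9.16% of all genes. The 10 listed had sums of 119525, 22540 and 13241. Cell cycle markers were also higher, with 10 of 10 at least 1.5-fold above the control, against 9.16% of all genes, and sums of 2230, 665 and 219. Of 10 endothelial and mural markers, 6 lay above the control in the MCAO hemisphere and 4 below it, against 48.8% and 50.3% of all genes. Compared with the contralateral hemisphere 8 were higher and 2 lower, against 49.7% and 50.3%. The endothelial and mural sums were 3829, 3620 and 4327, with Vtn the largest single part. The part of these cells in the lipid genes was not tested.

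**Figure D3:**
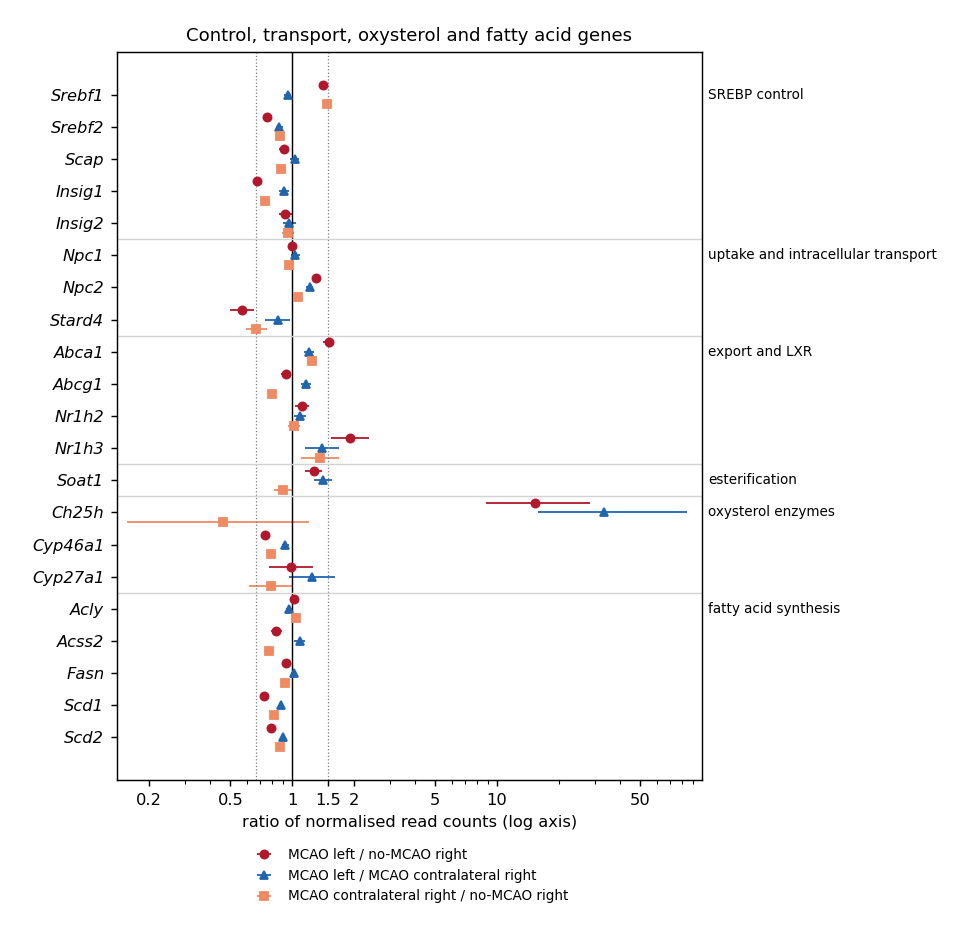
Ratio of normalised read counts (horizontal log axis) for the 21 members outside cholesterol synthesis, by role, with 95% counting intervals as bars and dotted lines at 1.5-fold. Ch25h stands apart at 15.3 over the no-MCAO right and 33.3 over the contralateral right hemisphere, Srebf1 lies above 1 in both ratios to the no-MCAO right hemisphere, and Insig1 and Stard4 lie below 1 in all 3 ratios.

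Fatty acid synthesis genes were closer to the control than the sterol enzymes after squalene. Scd1, a desaturase that makes monounsaturated fatty acids (chromosome 19, 44394450 to 44407709), stood at 22356 normalised counts in the MCAO hemisphere, 25173 in the contralateral hemisphere and 30685 in the control, a ratio of 0.729 (0.715 to 0.742) in the MCAO hemisphere. Scd2, its relative most used in brain (chromosome 19, 44293676 to 44306864), stood at 122205, 134766 and 154645 normalised counts, a ratio of 0.79 (0.784 to 0.796). Scd1, Scd2 and the related Scd3 are close in sequence and may share reads. Acss2, which activates acetate, had 2171, 1996 and 2586 normalised counts and was lowest in the contralateral hemisphere, at 0.772-fold the control (0.73 to 0.817). Fasn, fatty acid synthase, was at 0.939-fold and 0.923-fold of the control, and Acly, which makes cytosolic acetyl-CoA from citrate, at 1.02-fold and 1.05-fold. None of the 5 differed 1.5-fold in any comparison. By that size, 9.16% of all genes were higher and 5.18% lower in the MCAO hemisphere than in the control. The shares were 8.43% and 2.25% in the contralateral hemisphere against the control, and 6.19% and 7.71% between the hemispheres of mice with MCAO. The medians of the 5 genes were -0.25 in the MCAO hemisphere and -0.20 in the contralateral one against the control.

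Over all 39 members, 3 exceeded the control by 1.5-fold in the MCAO hemisphere (Abca1, Nr1h3 and Ch25h) and 3 lay below it by that size (Idi1, Sc5d and Stard4), against 9.16% and 5.18% of all genes. These shares of the members lie near the background. Against the contralateral hemisphere 1 was higher (Ch25h) and 0 lower, against 6.19% and 7.71% of all genes. In the contralateral hemisphere 0 were higher than in the control and 4 lower (Tm7sf2, Hsd17b7, Dhcr7 and Ch25h), against 8.43% and 2.25%, and the 14 and 7 reads of Ch25h leave its call uncertain. The contralateral library also held transcripts of male germ cells, at a sum of 267 normalised counts for 12 such markers in the MCAO hemisphere, 10953 in the contralateral hemisphere and 302 in the control, and their part in the members' values was not tested.

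**Figure D4:**
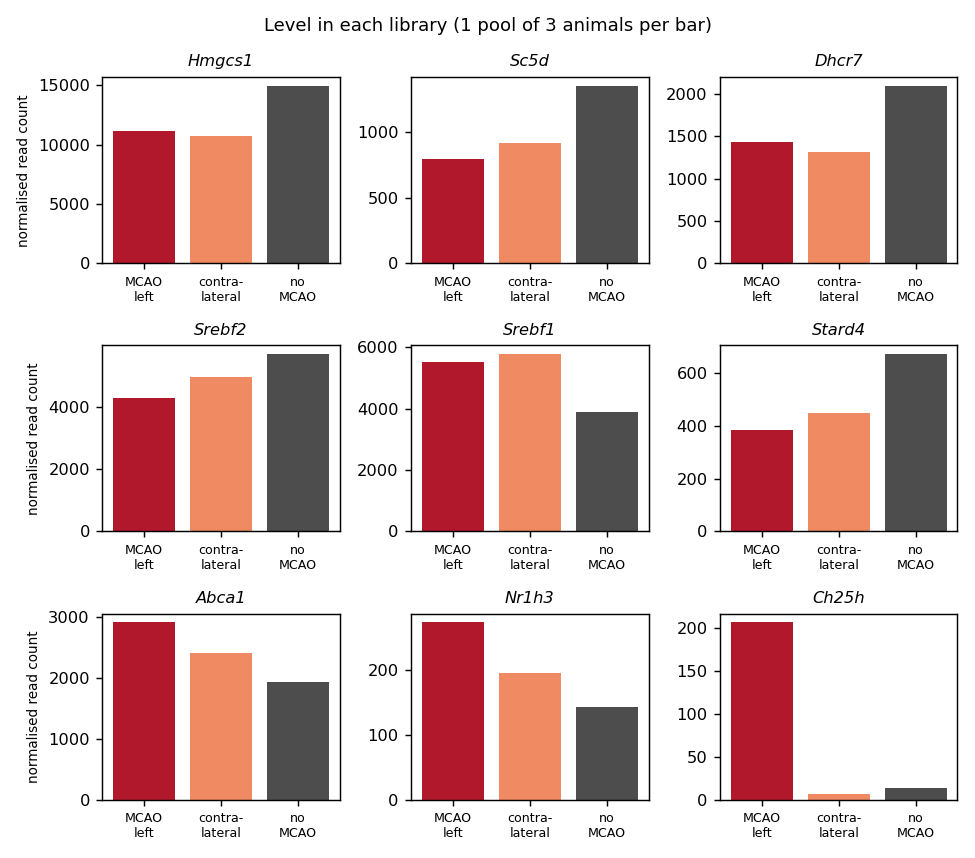
Normalised read count (vertical axes from 0, a separate scale per gene) of 9 members in the MCAO left, contralateral right and no-MCAO right hemispheres, 1 library of 3 pooled mice per bar. Hmgcs1, Sc5d, Dhcr7, Srebf2 and Stard4 are highest in the no-MCAO library and Srebf1 is lowest there, while Abca1, Nr1h3 and Ch25h are highest in the MCAO left hemisphere.

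Of 60 further genes of the same pathways, in 7 lists, 5 exceeded the control by 1.5-fold in the MCAO hemisphere and 2 lay below it by that size, while 9.16% and 5.18% of all genes did. The median log2 difference of the 60 was -0.09, beside 0.00 over all genes. Against the contralateral hemisphere 5 were higher and 1 lower in the MCAO hemisphere, while 6.19% and 7.71% of all genes were. In the contralateral hemisphere 2 were higher and 2 lower than in the control, while 8.43% and 2.25% of all genes were.

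In lipoprotein assembly and export, 2 of 10 genes were at least 1.5-fold higher than the control in the MCAO hemisphere, against 9.16% of all genes. By any amount, 5 of the 10 lay above the control, against 48.8% of all genes. Apod, an apolipoprotein of glia, had 6824 normalised counts in the MCAO hemisphere, 5866 in the contralateral hemisphere and 2512 in the control, and the lipoprotein lipase gene Lpl had 3621, 1909 and 2057. Apod was thus high in both hemispheres of mice with MCAO, and Lpl in the MCAO hemisphere alone. In oxysterol and ester turnover, 1 of 4 genes was at least 1.5-fold above the control in the MCAO hemisphere, against 9.16% of all genes. By any amount, 3 of the 4 lay above it, against 48.8%. The gene past 1.5-fold was Hsd3b7, of the bile acid pathway. It had 590 normalised counts in the MCAO hemisphere, 336 in the contralateral hemisphere and 261 in the control. Cyp7b1, an oxysterol hydroxylase, had 1002, 766 and 762.

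In fatty acid elongation, desaturation and activation, 1 of 19 genes was at least 1.5-fold higher than the control in the MCAO hemisphere and 0 lower. By that size 9.16% and 5.18% of all genes were. By any amount, 7 of the 19 lay above the control and 12 below it, against 48.8% and 50.3% of all genes, with a median of -0.07. The gene past 1.5-fold was Elovl1, an elongase of very long chains. It had 649 normalised counts in the MCAO hemisphere, 394 in the contralateral hemisphere and 355 in the control. Acacb, a mitochondrial acetyl-CoA carboxylase, had 238, 264 and 339. The elongase gene Elovl7, named after its values were seen, had 1469, 707 and 1424, so that it was low in the contralateral hemisphere, at 0.497-fold the control.

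In the isoprenoid branch 1 of 6 genes was at least 1.5-fold lower than the control in the MCAO hemisphere, against 5.18% of all genes. By any amount 5 of the 6 lay below the control, against 50.3%. The gene past 1.5-fold was Pggt1b, a subunit of a prenyltransferase, with 174, 227 and 276 normalised counts. Ggps1, which makes geranylgeranyl diphosphate, had 413, 523 and 527, a ratio to the control of 0.784 in the MCAO hemisphere. Of 8 sterol transfer proteins, 1 was at least 1.5-fold higher than the control in the MCAO hemisphere and 1 lower, against 9.16% and 5.18% of all genes. The higher one was Gramd1c, with 54.1, 84.3 and 31.0, and the lower one Gramd1b, with 673, 983 and 1042. The medians of these lists were -0.24 and -0.14. Of the 6 lipoprotein receptor and lysosomal release genes none differed 1.5-fold from the control in the MCAO hemisphere. By that size 9.16% of all genes were higher and 5.18% lower. The lysosomal acid lipase gene Lipa was at 1.26-fold and the receptor gene Lrp1 at 0.811-fold. Lrp1 was lowest in the contralateral hemisphere, with 136623 normalised counts in the MCAO hemisphere, 90969 in the contralateral hemisphere, at 0.54-fold the control, and 168402 in the control. Among 7 genes of SREBP processing and turnover none differed 1.5-fold in the MCAO hemisphere either, against 9.16% and 5.18% of all genes. The site protease genes Mbtps2 and Mbtps1 were at 0.82-fold and 0.833-fold of the control.

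Across all genes, medians with and without CCAAT were alike. The 4812 genes past the filter whose window held CCAAT had a median log2 difference of 0.00 between the MCAO hemisphere and the control, and the 6516 whose window lacked it also had 0.00. The 162 genes whose window held TCACNCCAC had a median of -0.04 in the same comparison, and the 11166 whose window lacked it had 0.00. Between the contralateral hemisphere and the control these medians were -0.0055 and -0.0005.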

How the data were processed

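In the deposited table each gene symbol has 1 value per library, in the unit signal. The authors divided read counts by 1 size factor for each library and listed values below 1 as 1. CASAVA 1.8, HISAT2 2.0.11, Partek 6.6, R 3.3.1, DESeq2 and the build mm10 are named, without roles, per the submitters' processing notes. Strand and annotation are not given in the sources used here. Sample descriptions name the columns.

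Above 1, values were whole multiples of 1 step per column (100% of values below 2000, within 0.1 read). Depth recovered from the steps was 25930258 reads in the MCAO hemisphere, 33886604 in the contralateral hemisphere and 31833456 in the control. Ratios are of normalised counts, with exact Clopper-Pearson 95% intervals from those reads. The intervals hold counting error alone, and PCR copies of a molecule may be counted more than once. Counts and medians used log2(value + 5), which makes differences of low genes look smaller, a minimum mean of 20 over the 3 libraries, and a 1.5-fold size. With 1 library per group no count model was fitted and no p-value was computed. Members and lists were chosen with earlier results of these data known. All members are named, and of each further pathway list at most the 2 genes with the largest difference between the MCAO hemisphere and the control. Elovl7 was named besides these for its low contralateral level, after the values were seen. Calling and intervals were tested on simulated data. Coordinates come from a RefSeq table for GRCm38.p6 (mm10), with 15912 of 16610 symbols found. Other enzymes and receptors of these pathways were not analysed here. Python 3.11.15, numpy 2.4.6, pandas 2.3.3, scipy 1.17.1 and matplotlib 3.10.9 were used. Alternatives were other scalings, pseudocounts, filters and fold sizes.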

Additional observations from a re-analysis of the deposited data

How the results depend on the processing

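The counts of members past 1.5-fold are small and depend on the settings. At 2-fold, 1 member was higher and 0 were lower in the MCAO hemisphere than in the control, and 0 were lower in the contralateral hemisphere, against 4.12%, 1.25% and 0.362% of all genes. At 1.2-fold, a size chosen after the data were seen, 7 were higher and 18 lower in the MCAO hemisphere than in the control, against 23.3% and 21.1% of all genes. At that size 8 were higher and 2 lower in it than in the contralateral hemisphere, against 15.4% and 16.5%, and 3 were higher and 21 lower in the contralateral hemisphere than in the control, against 21.3% and 16.2%. Scaling to the total of reads gave 1 member higher in the contralateral hemisphere. Scaling to the astrocyte markers gave 8 lower there, and scaling to the neuron markers, added after the data were seen, gave 1 higher and 1 lower there and 1 lower in the MCAO hemisphere. Shares of all genes past 1.5-fold were not counted under these scalings. In the contralateral hemisphere 59.7% of all genes lay below the control by any amount under the astrocyte scaling, and 45.5% under the total-read scaling. With a mean of at least 100 required, which removes Ch25h, 0 members were higher in the MCAO hemisphere than in the contralateral one. Pseudocounts of 1 and 20 and no filter moved no count by over 1.5 times. The number of synthesis enzymes below the control lay between 14 and 16 of 18 in the MCAO hemisphere and between 15 and 18 in the contralateral one over the 3 other scalings, and no fold past 1.5-fold changed direction under them. The highest contralateral count, 18, came with the astrocyte scaling, which left 59.7% of all genes below the control there. The lowest counts, 14 and 15, came with the neuron scaling, which left 28.8% and 30.0% of all genes below the control. That scaling shifts every gene alike, and it moved the median of all genes to 0.18 in the MCAO hemisphere against the control and to 0.14 in the contralateral one, from values near 0. The medians of lists that changed sign under a scaling were all within 0.2 of 0 on the log2 scale in both settings. No paired analysis was possible because each group has 1 library. No library could be left out for the same reason, and counting error is the only error that depth bounds here.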
